A study of Elaeis guineensis with 6 samples.

Results

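The 16 oil palm genes described here had low RNA levels in young inflorescences and much higher levels in an older inflorescence, both with and without loss of the leaves. They were selected on the measured levels themselves, in FPKM (the number of sequenced fragments of a gene divided by its length and by the size of the library). A gene was taken if it had an FPKM of 10 or more at leaf axil +5 in both trees, and if the lower of these values was at least 4 times the highest of the 4 values at leaf axils -27 and -20. Of 31653 genes with an identifier of their own, 16 met this rule, among 32099 gene records in all. The comparison of +5 with the earlier leaf axils was thus used to choose the genes, and is given as a description with no test.

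The study sequenced RNA of inflorescences of oil palm (Elaeis guineensis) at leaf axils -27, -20 and +5 from a tree under complete defoliation stress and from an untreated control tree. In the stress tree all leaves were cut except the central unopened one, and the inflorescences were taken when the tree was felled 45 days after the treatment. The control tree had no treatment and was felled as well. There were 6 libraries, 1 for each tree and leaf axil, so the 3 libraries of a treatment are leaf axils of 1 tree, values have no replicate error, and an effect of defoliation and a difference between individual trees cannot be told apart.

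An oil palm carries an inflorescence in the axil of each leaf, and the leaves are numbered so that positive numbers stand for leaves that have opened and negative numbers for younger leaves still enclosed in the crown. The inflorescence at +5 is therefore later in development than those at -27 and -20, though not yet emitted. Floral identity in flowering plants is set in large part by MADS-box transcription factors. Members of the SQUAMOSA subfamily, named after a snapdragon gene and including Arabidopsis APETALA1, act in giving meristems a floral identity, and proteins of the SEPALLATA (AGL2) subfamily act with them in the making of floral organs.

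Of the 16 genes, SQUA1, a gene of the SQUAMOSA subfamily, was the only one with a name, and the other 15 had a LOC identifier. All 16 were found by symbol in the RefSeq gene table of the EG11 assembly, which lists 15 of them as protein coding and LOC109505530 as a long non-coding RNA. That table gives no product names, so no function is stated for the LOC genes. LOC109505530 overlaps the protein-coding gene LOC105039087 in EG11, and the reads of overlapping genes cannot be told apart here, since the strand setting of the libraries is not given in the sources used here.

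The libraries differed little in depth, from 0.949 (control, +5) to 1.19 (stress, -27) relative to the control library at -27, as estimated from 1353 genes of low level. The FPKM values summed to between 238672 (stress, +5) and 268805 (control, +5). As a check of the tissue, a list of floral MADS-box genes and the meristem gene KNOX1 was used, of which 11 genes were matched. KNOX1 had the highest level of these, with an FPKM between 381 and 961 in the 6 libraries. Of the 11 genes only 5 reached an FPKM of 1 in 2 or more libraries, and AG2, MADS2 and AGL2-2 were at 0 in all 6. Of 6 leaf photosynthesis names 3 were matched, the plastid genes rbcL, psbA and psaA, with at most 0.606, and the nuclear names RBCS, CAB and LHCB were not, so leaf tissue was not checked by nuclear genes. In bulk RNA of this kind, fewer cells of a type and less RNA per cell cannot be told apart.

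At +5 the summed FPKM of the 16 genes was 682 in the stress library and 1266 in the control library, against 39.2 and 50.0 in the stress libraries at -27 and -20 and 44.8 and 46.9 in the control libraries at these leaf axils. They took 0.286% of the summed FPKM of the stress library at +5 and 0.471% of that of the control library at +5. Their median FPKM at +5 was 24.0 under stress and 69.4 in the control, and their median rank among all genes was 1855 and 504.5 in these libraries (1 is the gene with the highest FPKM). At -27 and -20 their median FPKM lay between 2.11 and 3.12 in the 4 libraries, and the highest early value of any of them was 8.43. The genes were thus mostly detected before +5. An FPKM of 1 or more in all 4 early libraries was found for 7 of them and an FPKM under 1 in all 4 for 2, LOC105050253 and LOC105046677.

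**Figure D1:**
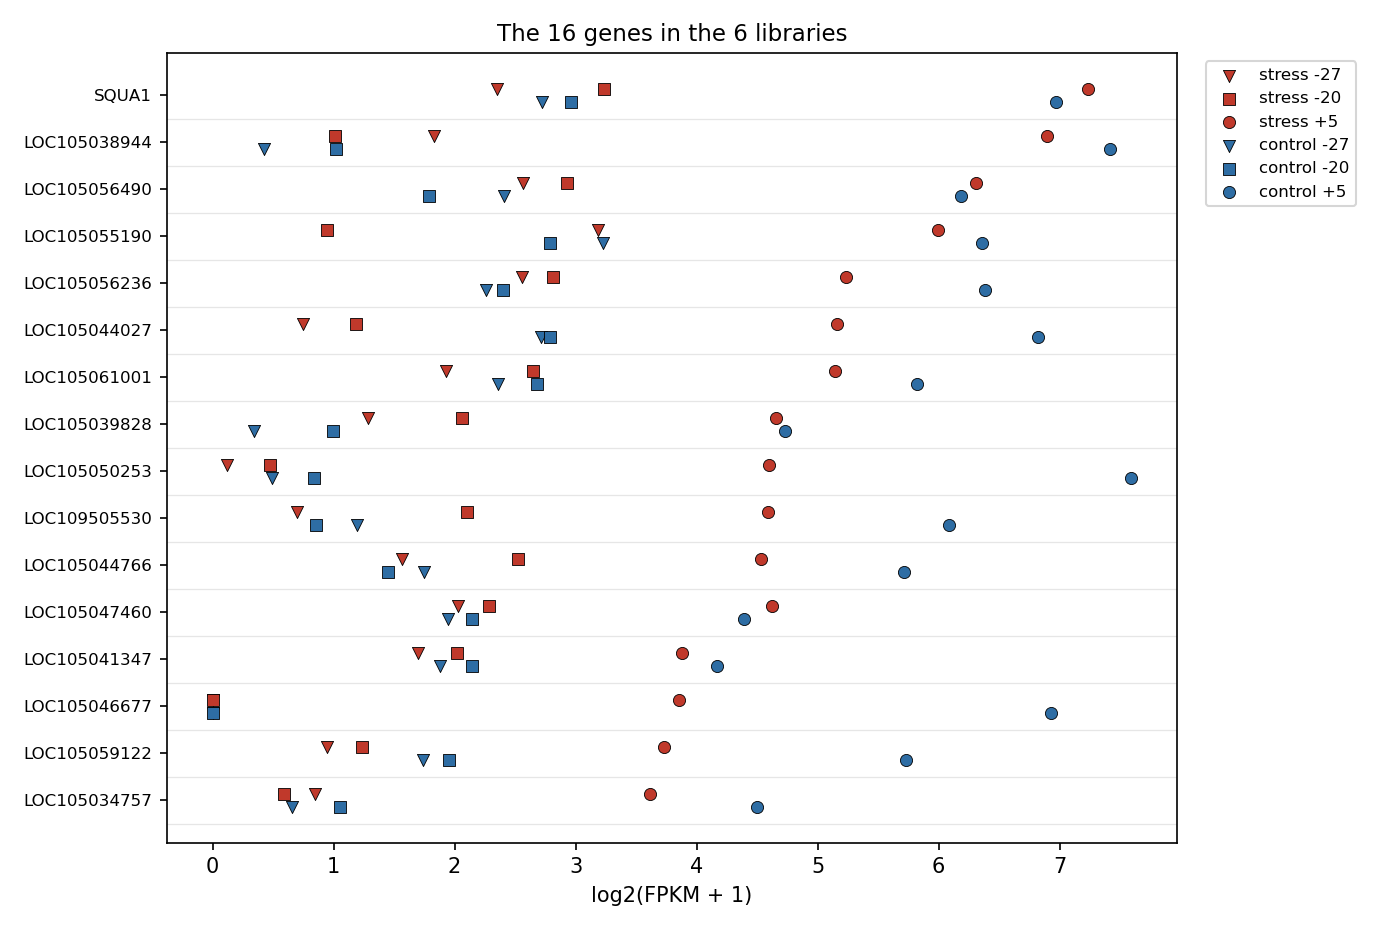
The level of each of the 16 genes in the 6 libraries, as log2(FPKM + 1), with stress in red and control in blue and the leaf axil given by the symbol. Circles, the +5 libraries, lie to the right of all early symbols in every row, as the rule requires, and the stress circle lies left of the control circle in 13 of 16 rows (LOC105039828 is 1 of these 13 and changes side after quantile normalization or median scaling). For LOC105046677 the early values are 0 and overlie each other.

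SQUA1 had the highest level at +5 by the lower of the +5 values. Its FPKM was 4.10, 8.43 and 150 at -27, -20 and +5 in the stress tree, against 5.59, 6.78 and 124 in the control tree. Both trees thus had similar levels at each stage, and the level at +5 was 17.8 times the higher early value in the stress tree and 18.4 times in the control tree. The difference at +5, stress minus control, was 0.27 on the log2(FPKM + 1) scale, the most positive of the 16.

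The next genes by the lower of the +5 values were also less than 2-fold apart between the trees at that stage. This order places a gene low if it was low in either +5 library. In the control library at +5, LOC105050253 (192), LOC105046677 (121) and LOC105044027 (112) had a higher FPKM than LOC105056490 and LOC105055190. Each of them was more than 2-fold lower in the stress library. LOC105038944 had an FPKM of 2.55, 1.011 and 118 at -27, -20 and +5 in the stress tree and of 0.342, 1.03 and 170 in the control tree. It had the highest ratio of the lower +5 value to the highest early value among the 15 genes with an early value above 0, at 46.2 times. LOC105056490 had an FPKM of 4.92, 6.60 and 78.4 in the stress tree and of 4.31, 2.46 and 71.8 in the control tree. LOC105055190 had an FPKM of 8.08, 0.921 and 63.0 in the stress tree and of 8.34, 5.91 and 81.2 in the control tree. Of its 4 early values, that of the stress library at -20 was far below the others.

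Among genes of lower level at +5, LOC105039828, LOC105047460 and LOC105041347 were also close between the trees. LOC105039828 had an FPKM of 1.44, 3.18 and 24.3 in the stress tree and of 0.266, 0.992 and 25.6 in the control tree, so that the trees were further apart early than at +5. LOC105047460 had an FPKM of 3.08, 3.87 and 23.7 in the stress tree and of 2.85, 3.43 and 20.03 in the control tree. LOC105041347 had an FPKM of 2.25, 3.06 and 13.7 in the stress tree and of 2.68, 3.42 and 17.0 in the control tree. The +5 libraries differed little for these 3 genes, with log2 differences of -0.07, 0.23 and -0.29. The sign for LOC105039828 changed after quantile normalization and after median scaling of the libraries, so its +5 values give no direction.

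At the other end, 7 of the 16 genes had at least 2-fold lower levels at +5 in the stress library than in the control library on the log2(FPKM + 1) scale, and 0 had at least 2-fold higher levels. The background of this count was 10.4% of the 19644 genes tested for lower and 5.92% for higher levels. Among the 4566 genes with an FPKM of 10 or more in both +5 libraries, a closer background since the rule asks for such values, it was 7.97% and 4.03%. With 1 library per tree there is no replicate check of these differences. The rule bounds the lower value at +5 and not the higher one, so it does not set which tree is lower, but it used these same values. Neither background is limited to genes that rise by +5. With the control library at +5 alone 191 genes met both thresholds, and with the stress library at +5 alone 62 did. It is therefore not known whether the lower levels under stress are particular to these 16 genes.

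LOC105046677 was listed at 0 in the 4 early libraries and had an FPKM of 13.4 in the stress library at +5, against 121 in the control library at +5. LOC105050253 had an FPKM of 0.0844, 0.390 and 23.3 at -27, -20 and +5 in the stress tree, against 0.405, 0.793 and 192 in the control tree. These genes had the most negative differences at +5, -3.08 and -2.99 on the log2(FPKM + 1) scale. LOC105050253 had the highest level of the 16 in the control library at +5, and ranked 9 of 16 by the rule's lower value.

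LOC105059122 had an FPKM of 0.921, 1.36 and 12.3 in the stress tree, against 2.33, 2.88 and 52.2 in the control tree, and LOC105044027 had 0.680, 1.28 and 34.7, against 5.55, 5.92 and 112. Both were lower under stress at all 3 leaf axils. For LOC105044027 the log2 difference was of similar size throughout, -1.96 at -27, -1.60 at -20 and -1.66 at +5. Its level at +5 was 27.2 times the higher early value in the stress tree and 18.9 times in the control tree, so the ratio to the early levels was not smaller under stress.

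For the remaining 3 of the 7, the sign of the difference between the trees was not the same at every leaf axil. The long non-coding RNA LOC109505530 had an FPKM of 0.623, 3.30 and 23.0 in the stress tree, against 1.29, 0.808 and 67.0 in the control tree. Its values may hold reads of LOC105039087, which it overlaps. LOC105044766 had an FPKM of 1.97, 4.77 and 22.1 in the stress tree, against 2.35, 1.74 and 51.6 in the control tree. Both had their highest early level in the stress library at -20 and were lower under stress at +5. LOC105056236 had an FPKM of 4.88, 6.02 and 36.6 in the stress tree, against 3.80, 4.28 and 82.6 in the control tree, higher under stress at both early leaf axils and lower at +5.

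LOC105061001 and LOC105034757 lay between these groups. LOC105061001 had an FPKM of 2.80, 5.28 and 34.4 in the stress tree, against 4.13, 5.42 and 55.6 in the control tree. LOC105034757, the gene with the lowest of the lower +5 values, had an FPKM of 0.803, 0.503 and 11.2 in the stress tree, against 0.573, 1.08 and 21.6 in the control tree. Their log2 differences at +5 were -0.67 and -0.88.

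**Figure D2:**
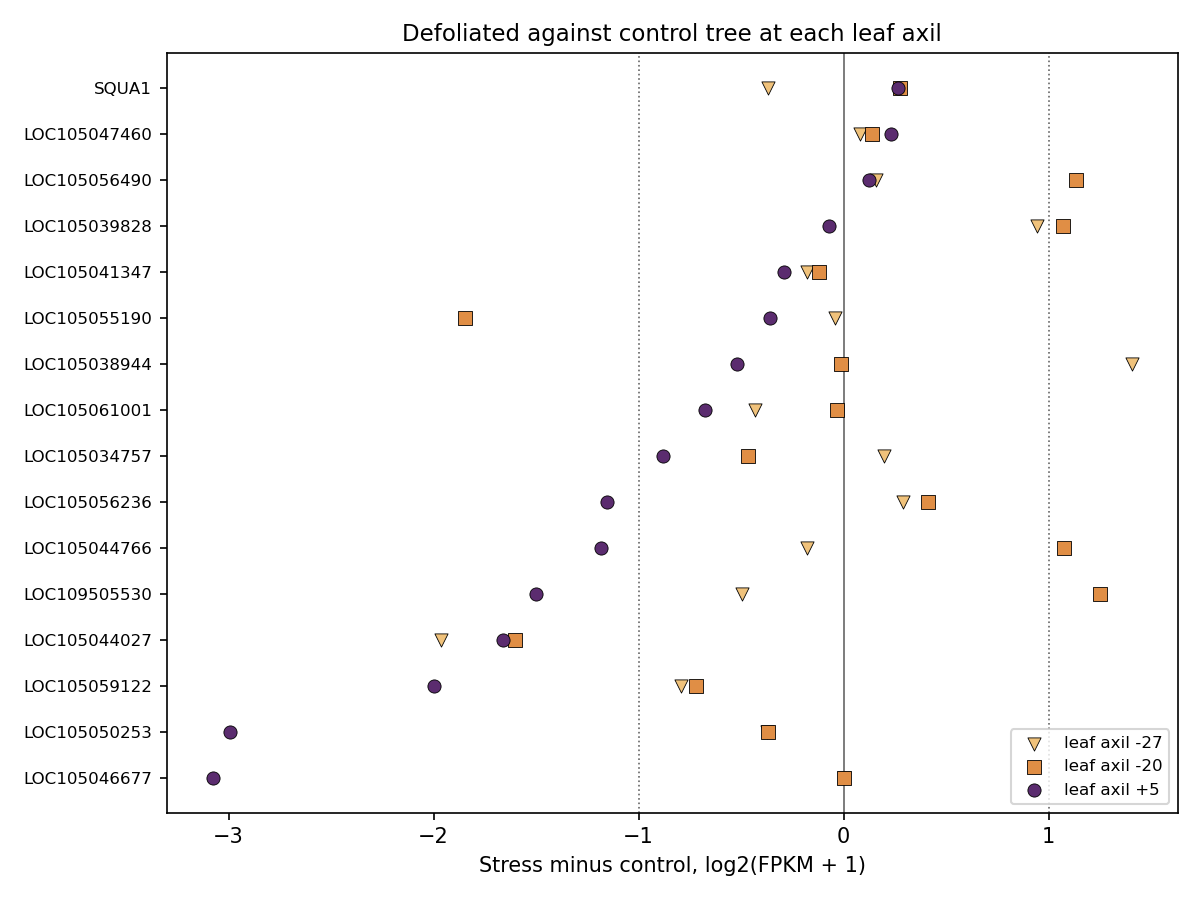
Stress minus control of log2(FPKM + 1) for each of the 16 genes at each leaf axil (symbols), ordered by the value at +5, with a solid line at 0 and dotted lines at 2-fold. The +5 values run from -3.08 (LOC105046677) to 0.27 (SQUA1), and 7 lie left of the lower dotted line, while the early values lie on both sides of 0. The sign of LOC105039828 at +5 changes with the scaling of the libraries, and LOC105056236 is inside the dotted line after quantile normalization.

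Over the 16 genes, 13 were lower in the stress library than in the control library at +5, with a median log2 difference of -0.78, against 57.3% of all tested genes, whose median was -0.11. After scaling the libraries to equal medians the median over all tested genes was 0.00 and that over the 16 genes was -0.65, with 12 of 16 lower. The rule used these same values, so this shift is not shown to be particular to the 16 genes. At the early leaf axils no such shift was seen. At -27, 9 of the 16 genes were lower and 6 higher under stress, with a median of -0.11, and at -20, 8 were lower and 7 higher, with a median of -0.01 (LOC105046677 was listed at 0 in all these libraries). The medians over all tested genes were -0.03 at -27 and -0.06 at -20. Lower levels under stress at all 3 leaf axils were found for 6 of the 16 genes (LOC105055190, LOC105044027, LOC105061001, LOC105050253, LOC105041347 and LOC105059122), against 30.2% of all tested genes. Higher levels at all 3 were found for LOC105056490 and LOC105047460, and the share of all tested genes was not computed for this.

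Within a tree, the level at +5 was between 4.49 and 59.7 times the higher of the levels at -27 and -20 in the stress tree, with a median of 7.80, and between 4.98 and 242 times in the control tree, with a median of 18.9 (15 genes, since LOC105046677 was listed at 0 early). The fold was larger in the control tree for 13 of these 15 genes and larger in the stress tree for LOC105044027 and LOC105047460. This count uses the values that the rule used, and the share over all tested genes was not computed. It is therefore not known whether the larger fold in the control tree is particular to these genes. The largest folds were those of LOC105050253, 59.7 times in the stress tree and 242 times in the control tree, followed by LOC105038944 at 46.2 and 165 times. Their size rests on low early values. The FPKM divided by was 0.390 (stress) and 0.793 (control) for LOC105050253 and 2.55 (stress) and 1.03 (control) for LOC105038944.

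**Figure D3:**
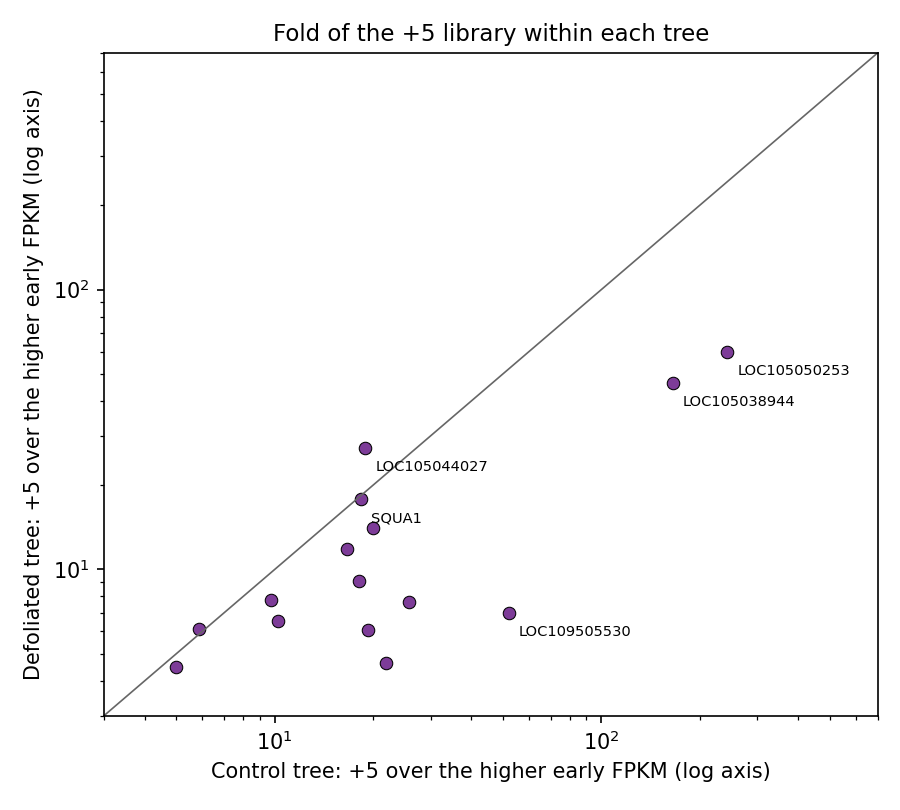
FPKM at +5 divided by the higher FPKM of -27 and -20, for the stress tree (vertical, log axis) and the control tree (horizontal, log axis), with the line of equal fold. Of the 15 genes with an early value above 0, 13 lie below the line, SQUA1 lies close to it (17.8 and 18.4 times) and LOC109505530 lies far from it (6.99 times under stress and 52.0 times in the control).

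Between -20 and -27, 2 of the 16 genes were at least 2-fold apart in the stress tree on the log2(FPKM + 1) scale, LOC105055190 and LOC109505530, and 0 in the control tree, against 0.982% and 0.957% of all tested genes. The count depends on this scale, since many early values are low. By the plain ratio of FPKM, an alternative chosen after seeing the data, 7 of 15 genes above 0 were at least 2-fold apart in the stress tree, against 5.31% of tested genes, and 2 of 15 in the control tree, against 4.68%. In the stress tree these were SQUA1, LOC105038944, LOC105039828, LOC105044766, LOC105050253, LOC105055190 and LOC109505530, and in the control tree LOC105038944 and LOC105039828. The rule chose genes of low early level, and the share over tested genes of equally low level was not computed. The plain ratios therefore do not show that these genes differ more than others of such levels. With no fold threshold, the level was higher at -20 than at -27 for 12 genes in the stress tree, for 11 in the control tree and for 9 in both, which included SQUA1. Of all tested genes, 44.2% were higher at -20 in the stress tree, 49.4% in the control tree and 21.8% in both. The median log2 difference of the 16 genes between -20 and -27 was 0.34 in the stress tree and 0.21 in the control tree. The rule also used these early values, and several of them were under an FPKM of 1. No conclusion about a rise before +5 is therefore drawn from these counts.

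The study's own question was how defoliation stress differs from control over the leaf axils, and this contrast was tested with limma on log2(FPKM + 1) over the 19644 genes that reached an FPKM of 1 in 2 or more libraries. This scale understates the fold of genes with low levels. All 16 genes passed this filter, as the rule fixes. The threshold was a Benjamini-Hochberg adjusted p under 0.01 and a fold change of at least 2. By limma 0 of the 16 genes passed it and 0 had an unadjusted p under 0.05. Of all tested genes 0.397% passed it (22 higher and 56 lower under stress), and 21.9% had an unadjusted p under 0.05. In this fit the gap between +5 and the early leaf axils, which chose the genes, counts as spread, and their standard errors ran from 0.76 to 2.18. When the leaf axil was added as a replicate block, the standard errors ran from 0.15 to 0.63. By limma 0 of the 16 then passed the threshold and 2 had an unadjusted p under 0.05. Of all tested genes 0.143% passed it and 26.4% had an unadjusted p under 0.05, and 2 of 16 is not above this share. The rule chose the genes on the same values, and this scale narrows their differences at the early leaf axils. No conclusion about the 16 genes is therefore drawn from these counts.

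The gene nearest to the threshold was LOC105044027, picked out here after its values were seen. Its log2 fold change over the 3 leaf axils was -1.74, lower in 3 of 3 leaf axils, with a standard error of 1.47 and an adjusted p = 0.535 from limma without the block, and a standard error of 0.15 and an adjusted p = 0.0141 from limma with it. Over all alternatives its adjusted p from limma ran from 0.0141 to 0.877. LOC105059122 had a log2 fold change of -1.17, also lower in 3 of 3 leaf axils, with an adjusted p = 0.613 from limma without the block and of 0.0806 with it. For SQUA1 the log2 fold change was 0.06, with a standard error of 1.53 without the block and 0.18 with it. Without the block these p-values measure only the spread between leaf axils of a single tree for each treatment. With the block they measure how much the difference between the same trees varied over the 3 leaf axils. Neither measures a spread between trees of a treatment, and a p above the threshold does not show that the trees had the same levels.

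SQUA1 was the only gene to meet the rule on the list of floral MADS-box genes and KNOX1 used to check the tissue. Of 32 names on it, which hold several names for some genes, 11 genes were matched in the table and 5 passed the filter. GLO1 (LOC105037274), a B-class gene of the kind that specifies petals and stamens in Arabidopsis, had an FPKM of 4.59, 6.31 and 9.97 at -27, -20 and +5 in the stress tree, against 6.84, 8.01 and 11.2 in the control tree. Its relative GLO2 had an FPKM of 2.15, 0.844 and 3.51 in the stress tree, against 3.61, 4.86 and 7.83 in the control tree. KNOX1, of a homeobox family that keeps meristem cells undifferentiated, had 961, 914 and 928 in the stress tree, against 847, 480 and 381 in the control tree. The median log2 difference at +5 between stress and control over the 5 genes was -0.15, and that over all tested genes was -0.11. The 5 values lay far apart, so this median does not show similar levels in both trees. They were -1.47 for AGL2-5 (described below), -0.97 for GLO2, -0.15 for GLO1, 0.27 for SQUA1 and 1.28 for KNOX1. DEF1, AG2, AGL2-2, AGL2-3, MADS2 and AGL6-1 did not pass the filter, and of these only AGL6-1 had an FPKM above 1 in any library, 2.21 in the control library at +5.

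AGL2-5 (LOC105057174), of the SEPALLATA subfamily, was also higher at +5 than at the early leaf axils in both trees, and is the neighbour of SQUA1 among the genes of the table ordered along EG11. It had an FPKM of 0.252, 0 and 1.95 in the stress tree, against 0, 0 and 7.19 in the control tree, too low at +5 for the rule. LOC105057208, the neighbour of SQUA1 on its other side, had an FPKM of 8.26, 7.51 and 6.79 in the stress tree, against 10.04, 7.93 and 5.89 in the control tree, lowest at +5 in both.

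Of the 16 genes 15 have a chromosome in EG11, and 0 of their 30 neighbouring genes were among the 16. The position of LOC105034757 was not examined. Of these neighbours 20 had an FPKM of 1 or more in both +5 libraries. In 5 of the 20 the lower +5 value was above the highest early value, against 17.1% of all placed genes at such levels, and in 2 it was at least 2 times that value, against 2.22%. The first of these 2 was AGL2-5 and the second LOC105039087, the gene that LOC109505530 overlaps, with an FPKM of 1.76, 3.06 and 10.01 in the stress tree, against 2.25, 2.43 and 10.9 in the control tree. LOC105039087 was thus listed at similar levels in both trees at +5, and LOC109505530 at 23.0 under stress and 67.0 in the control. The reads of these overlapping genes cannot be told apart here, so the values of either may hold reads of the other.

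**Figure D4:**
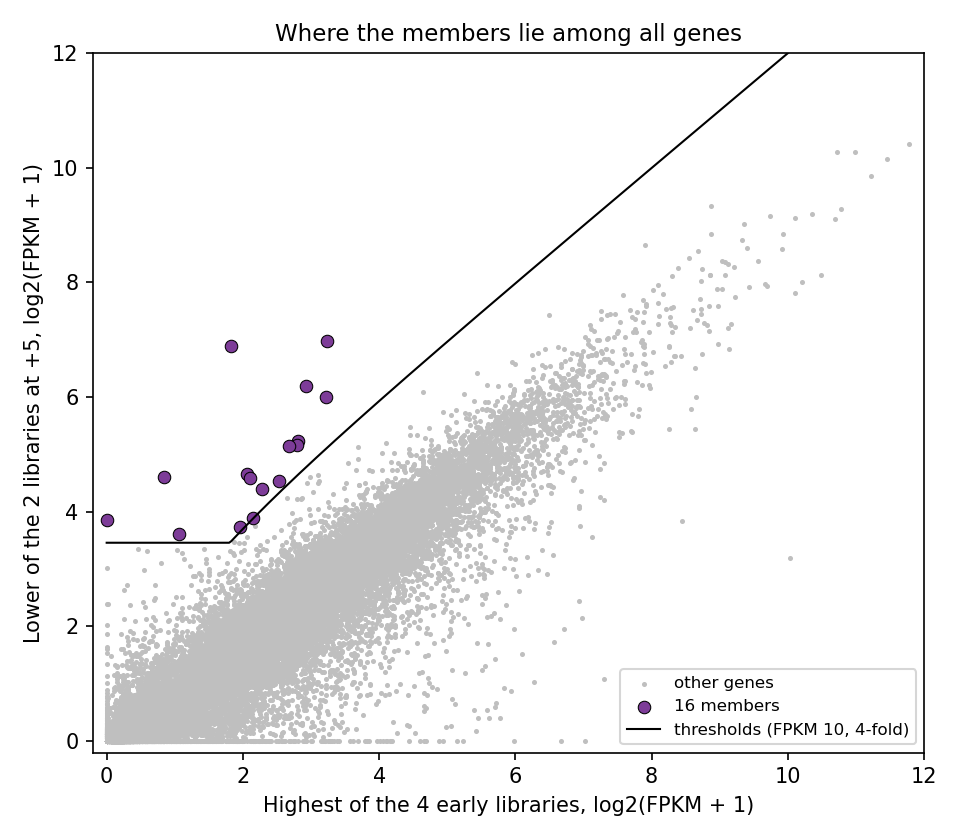
Each gene by its highest early value (horizontal) and the lower of its +5 values (vertical), both as log2(FPKM + 1), with the 16 genes in purple, all other genes in grey and the rule's thresholds as a line. The 16 genes lie above the line by construction, and SQUA1 and LOC105038944 are the highest of the 16 on the vertical axis.

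The rule cut a continuous distribution. Of the 4566 genes with an FPKM of 10 or more in both +5 libraries, the lower +5 value was above or equal to the highest early value in 634, at least 2 times that value in 55, at least 3 times in 25, at least 4 times in 16 and at least 8 times in 6. Just inside the fold threshold were LOC105041347 at 4.02 times and LOC105059122 at 4.28 times, and just outside were LOC105058911 at 3.80 times and LOC105052292 at 3.54 times. Just inside the FPKM threshold were LOC105034757 at 11.2 and LOC105059122 at 12.3, and just outside were LOC105052308 at 9.15 and LOC105042507 at 9.14. LOC105052308, at 24.4 times its highest early value, was higher under stress at +5, with 33.6 against 9.15 in the control library. LOC105042507 had 9.14 under stress and 13.6 in the control. The stress difference at +5 was not counted for the larger sets of genes that other thresholds gave. With the stress library at +5 alone 62 genes met both thresholds, and with the control library at +5 alone 191 did. The 16 genes were 25.8% of the first list and 8.38% of the second.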

How the data were processed

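Reads of the 6 libraries were aligned by the authors with HISAT2 2.1.0 to the oil palm genome and quantified per gene with StringTie 1.3.4 (versions from the submitters' processing notes), and the FPKM values they deposited are used here. The authors' own test used DESeq2 1.18.1 on estimated counts, which were not used here. Absolute depth is not in the FPKM values. The study reports the reads and the mapped share of each library, but these were not used here and no counting intervals were computed. Records with a repeated identifier (446) were left out. Differences are of log2(FPKM + 1), stress minus control. Tests used limma 3.58.1 in R 4.3.3 (mean-variance trend, Benjamini-Hochberg adjustment over the 19644 genes that reached an FPKM of 1 in 2 or more libraries), with the study's thresholds, and were tested on simulated data. The simulation gave every gene independent noise of the same spread and no leaf axil or tree effect. It therefore does not check the test under this design. The filter asked for 2 libraries so that genes present only at +5 were kept. The leaf axil pairs the libraries: deviations from the treatment mean correlated across genes within a leaf axil (r = 0.235 at -27, 0.357 at -20 and 0.434 at +5). Genes were named by level at +5, by the size of the stress difference and of the fold over early values, and by closeness to the thresholds. LOC105044766 falls outside this rule and was added after its values were seen, so that all 16 are described. The genes, lists and thresholds were chosen with earlier results of these data known. Genes were matched by symbol or synonym to the RefSeq table of EG11, which is not the assembly of the authors' alignment, for names, biotypes and neighbours only (28209 of 31653 matched). No promoter or protein sequences were used, so the planned sequence features were not computed. Alternatives were other thresholds, pseudocounts, filters, scalings, a fit without trend, a replicate block, and omission of each library in turn. Python 3.11.15, numpy 2.4.6, pandas 2.3.3 and matplotlib 3.10.9 were used.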

Additional observations from a re-analysis of the deposited data

Results flagged for a closer look

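In 2 of the 16 genes the difference between the trees at +5 ran against that at both early leaf axils. LOC105056236 was lower under stress at +5, with a log2 difference of -1.15, and higher at -27 (0.29) and -20 (0.41). LOC105039828 was lower under stress at +5 by a log2 difference of -0.073, which changed sign under other scalings of the libraries, and higher at -27 (0.95) and -20 (1.07). These differences between leaf axils were not tested, since each leaf axil has 1 library per tree.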

How the results depend on the processing

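The number of genes meeting the rule was 35 with a minimum FPKM of 5, 55 at 2 times the highest early value and 6 at 8 times, and it stayed at 16, with the same genes, after quantile normalization, after median scaling and with repeated identifiers included. With 1 library left out it ranged from 16 to 191 genes. It was 191 without the stress library at +5 and 62 without the control library at +5, since the rule then rests on a single library at +5. The number of the 16 genes at least 2-fold apart at +5 was 6 after quantile normalization, where LOC105056236 came to -0.91, 2 at a fold of 4, and 3 at a fold of 4 by the plain ratio of FPKM (LOC105059122 being the added gene), an alternative chosen after seeing the data. Of 64 recomputed differences at +5 the sign changed in 2, both of LOC105039828 (0.07 after quantile normalization and 0.06 after median scaling).

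In the test of stress against control over all genes, 78 were past the threshold, against 28 when the leaf axil was a replicate block, 48 with a pseudocount of 0.1 and 33 at a mean FPKM of 5 or more. With 1 library left out the number ranged from 0 to 90. It was 0 without any 1 of the 4 early libraries (2845 to 3652 genes at an unadjusted p under 0.05 by limma), 15 without the stress library at +5 and 90 without the control library at +5. In all of these fits 0 of the 16 genes were past the threshold. In the fits without the block the gap between +5 and the early leaf axils, which chose the genes, counts as spread. This count therefore does not show that the trees had the same levels. With a filter of 3 libraries 14 of the 16 were tested. The block changed no call among the 16.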
